A study of Mus musculus with 18 samples.

Results

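The data describe 10 genes of hepatic stellate cells and the extracellular matrix, Reln, Lrat, Des, Dcn, Bgn, Col1a1, Col1a2, Col3a1, Col4a1 and Timp1, in the liver of mice exposed to chemicals that were tested for liver tumours. They were taken as the array probe sets whose platform annotation names exactly 1 of these symbols, with the probe set of highest mean standing for its gene. This gave 21 probe sets for 10 genes, and 9 of the genes were among the 12170 that were tested. Timp1 was not tested, because none of its 18 arrays lay above the array median.

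Liver RNA of 18 female B6C3F1 mice, a hybrid of inbred strains, was hybridised to Affymetrix mouse expression arrays, 1 animal per array and 3 per group. The animals were 5 weeks old at the start, were exposed for 13 weeks and were 18 weeks old at harvest. One group received 1,5-naphthalenediamine (NDA) at 2000 ppm in feed and another 2,3-benzofuran (BF) at 240 mg/kg by gavage in 5 ml/kg corn oil on 5 days per week, both classed in the design text as positive for liver carcinogenicity. The chemicals classed as negative were N-(1-naphthyl)ethylenediamine dihydrochloride (NED) at 2000 ppm and pentachloronitrobenzene (PCNB), a fungicide, at 8187 ppm, both in feed. The controls were a feed group, which served NDA, NED and PCNB alike, and a corn oil gavage group, which served BF. Feed was given on 7 days per week. BF was the only chemical given by gavage, and each chemical was given at a single dose. Whole liver was measured, so fewer cells of a type and less RNA per cell cannot be told apart.

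Stellate cells lie between the hepatocytes and the sinusoidal endothelium, store vitamin A as retinyl esters and, when activated in chronic injury, become myofibroblasts that lay down fibrillar collagen. Reelin (Reln), lecithin retinol acyltransferase (Lrat) and desmin (Des) are markers of stellate cells. Decorin (Dcn) and biglycan (Bgn) are small proteoglycans that bind collagen fibrils. Type I and type III collagen (Col1a1, Col1a2, Col3a1) form fibrils, type IV collagen (Col4a1) forms the sheet of basement membranes, and Timp1 inhibits matrix-degrading metalloproteinases.

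Alb, the hepatocyte gene for serum albumin, lay between 14.37 and 14.49 on all 18 arrays. Array medians ranged from 4.25 to 4.35, and the correlation between arrays from 0.979 to 0.995. Upper quartiles were higher in the 12 exposed arrays (6.32 to 6.41) than in the 6 control arrays (6.10 to 6.26). The tested genes had a median deposited change of 0.18 for NDA, 0.11 for BF, 0.15 for NED and 0.15 for PCNB. Changes below are log2 differences minus this shift unless they are called deposited, with the SE of the model, whereas calls were made on the deposited scale. A gene was called when its limma p, adjusted by Benjamini-Hochberg over all 12170 genes, was under 0.05. The control probe sets for 18S ribosomal RNA stood high in 5 arrays, NDA animal 4, BF animals 6 and 10 and NED animals 12 and 14, at 7.93 to 11.56 against 5.94 to 6.97 in the other 13 arrays. RNA integrity numbers were lowest in NED, at 7.83 ± 0.23, against 8.90 ± 0.17 in feed controls (SD, n = 3 each).

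Few of the 9 genes passed the test. Col4a1 rose with NDA, and the call, 1 gene of 9, stood beside 39.9% of all tested genes called in that comparison (31.5% higher and 8.41% lower). With BF, Col4a1 rose and Reln and Bgn fell, 3 of 9 beside 32.3% of all genes (24.8% higher and 7.58% lower). NED lowered Col3a1, 1 of 9 beside 29.1% (24.7% higher and 4.37% lower), and PCNB raised Bgn, 1 of 9 beside 18.5% (14.6% higher and 3.87% lower). None was called between corn oil and feed controls, where 0.123% of all genes were, and 0 of 9 had an unadjusted p under 0.05 there. The median change of the 9 genes was -0.26 with NDA, -0.28 with BF, -0.16 with NED and 0.09 with PCNB, where the median over all tested genes is 0 by construction. Of these 9 genes, the share called was below that of all tested genes with NDA, NED and PCNB and close to it with BF on the deposited scale. With NDA this turned round, to 4 of 9 beside 24.3% after quantile normalization and 5 of 9 beside 34% after centring. Shares of 9 genes are coarse, and whether they differ from those of all tested genes was not tested.

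**Figure D1:**
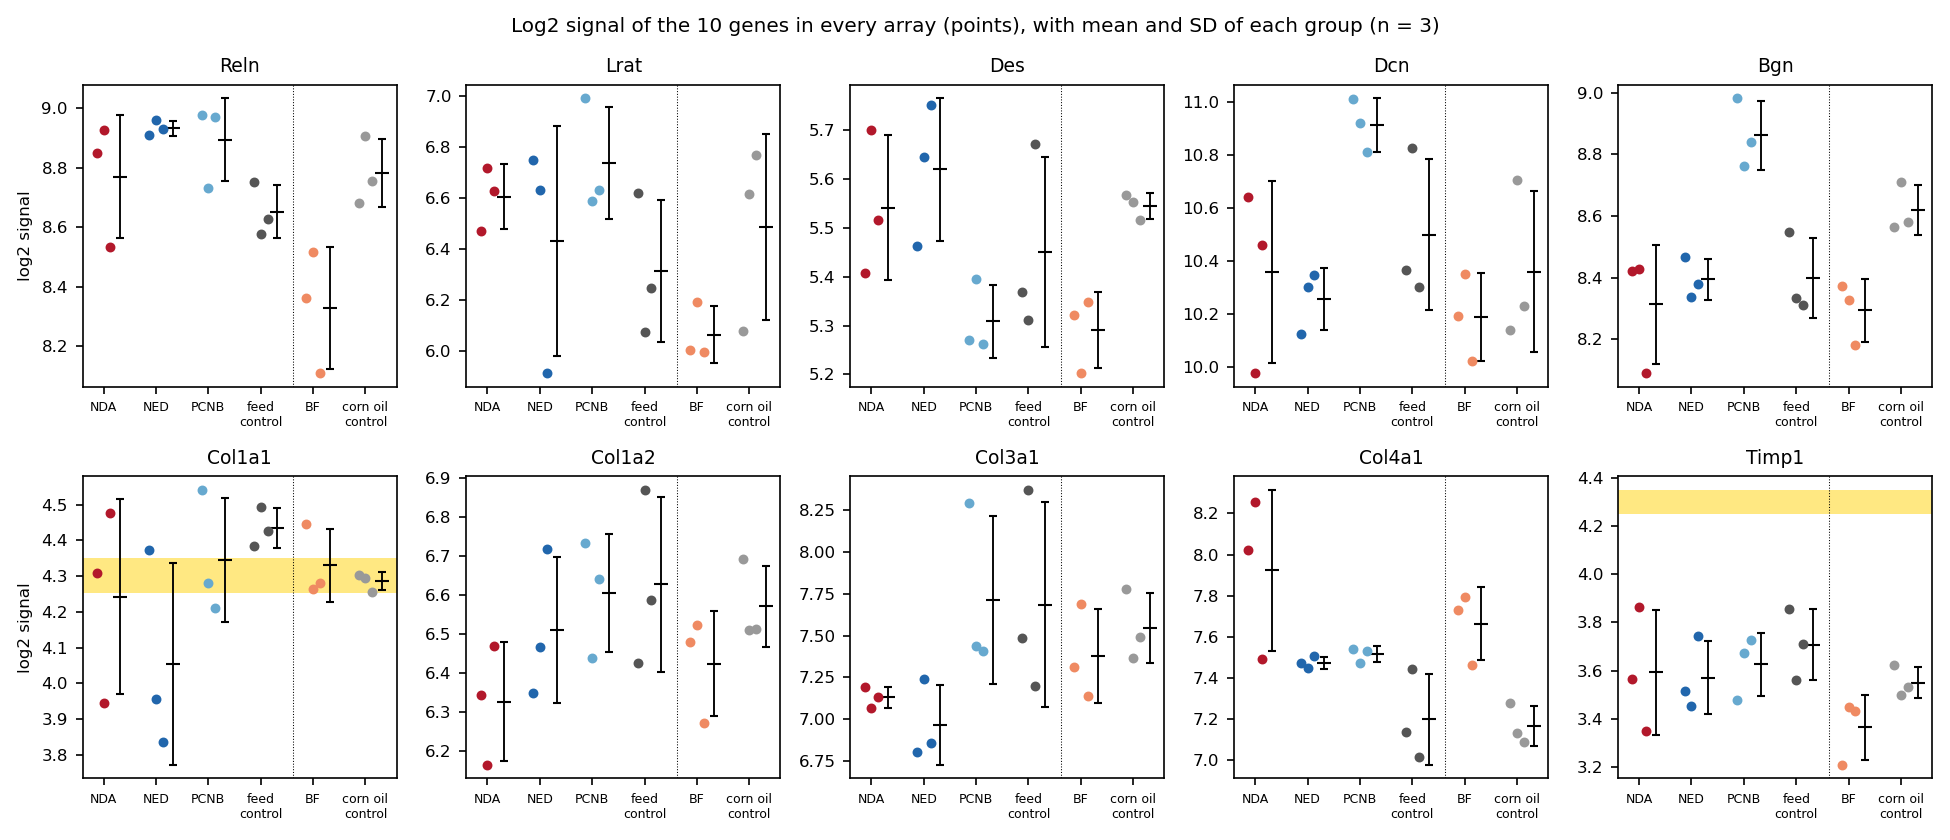
Log2 signal (vertical axes) of the 10 genes in every array, with groups along the horizontal axes, the mean and SD of each group (n = 3) beside the points, and a dotted line between the feed and the gavage groups. The yellow band is the range of array medians, 4.25 to 4.35. All Timp1 points lie below it, and in the Col4a1 panel all arrays of NDA, NED, PCNB and BF lie above those of their own controls.

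Col4a1, the alpha-1 chain of type IV collagen, rose with NDA. Its log2 signal was 8.02, 8.25 and 7.49 in NDA livers, against 7.14, 7.44 and 7.02 in feed controls. The groups did not overlap, although the lowest NDA array lay only just above the highest control. The change was 0.55 ± 0.15 (n = 3 each; limma adjusted p = 0.00184), a 1.46-fold rise relative to the median of all genes. This call was kept in all 19 alternative settings, in which the highest adjusted p was 0.0289. Tested genes of a similar signal, within 0.5 of Col4a1, had a median deposited change of 0.32 with NDA, and Col4a1 stood 0.41 above that. BF gave 7.73, 7.80 and 7.46, against 7.28, 7.13 and 7.09 in corn oil controls, again without overlap. Genes of a similar signal had a median deposited change of 0.25 with BF, and Col4a1 stood 0.24 above that. The rise of Col4a1 with BF, 0.39 ± 0.15 (n = 3 each; limma adjusted p = 0.0199), was called on the deposited scale. It was lost in 10 of 19 alternatives. These include quantile normalization (adjusted p = 0.171), centring of arrays on the tested genes (adjusted p = 0.1), RNA integrity as a covariate (adjusted p = 0.0766) and leaving out BF animal 6 or 8 or corn oil animal 24 or 25.

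Col4a1 was not called with the chemicals classed as negative. It lay at 7.47, 7.45 and 7.51 in NED livers and at 7.54, 7.47 and 7.53 in PCNB livers, against the 7.02 to 7.44 of feed controls. All these arrays lay above all controls, with changes of 0.12 ± 0.15 for NED (adjusted p = 0.179) and 0.17 ± 0.15 for PCNB (adjusted p = 0.141, limma, n = 3 each). Arrays without overlap made up 46.5% of all tested genes for NDA, 49.2% for BF, 38.2% for NED and 38.2% for PCNB, so the lack of overlap in Col4a1 is common in these data. Another probe set of the gene was not called. It lay at 6.60, 6.64 and 6.63 in NDA livers, against 6.21, 6.46 and 6.40 in feed controls, and the BF arrays overlapped with the corn oil controls. Its deposited change was 0.27 for NDA (adjusted p = 0.155) and 0.01 for BF (adjusted p = 0.963), in a limma fit of all passing probe sets. When the tested probe sets of a gene were averaged, the call for NDA was kept at 0.36 (limma adjusted p = 0.00477) and that for BF was lost at 0.17 (adjusted p = 0.118).

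Col4a2, the alpha-2 chain with which the Col4a1 chain assembles, is the neighbouring gene. It lay at 7.25, 7.18 and 6.75 in NDA livers, against 6.30, 6.50 and 6.02 in feed controls. It rose by 0.61 ± 0.17 (n = 3 each; limma adjusted p = 0.00183), also after quantile normalization (adjusted p = 0.014) and centring (adjusted p = 0.0131). In BF livers it was 7.06, 6.94 and 6.62, against 6.72, 6.57 and 6.22 in corn oil controls, and these groups overlapped. The 2 genes are transcribed away from each other on chromosome 8 (GRCm38.p6, RefSeq), Col4a1 at chr8:11198423-11312889 and Col4a2 at chr8:11312805-11449287. Their promoter windows, 250 bases before to 50 after the start, share 78 bases, and the starts on which the windows are placed, 11312826 for Col4a1, inside the gene end given above, and 11312805 for Col4a2, are 21 bases apart. They are shown because both genes rose with NDA and their windows overlap. Col4a1 lies at chr8:11312777-11313076 on the minus strand and Col4a2 at chr8:11312555-11312854 on the plus strand. Capitals mark matches, on either strand, to CCAAT or GGGCGG, the letters that NF-Y and Sp factors are known to bind.
Col4a1: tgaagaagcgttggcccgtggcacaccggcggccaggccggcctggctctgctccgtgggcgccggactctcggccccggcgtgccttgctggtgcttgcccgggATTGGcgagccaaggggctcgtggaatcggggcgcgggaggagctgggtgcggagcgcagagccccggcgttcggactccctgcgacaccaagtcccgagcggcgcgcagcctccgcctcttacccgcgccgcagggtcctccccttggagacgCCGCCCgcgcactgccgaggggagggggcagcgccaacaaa
Col4a2: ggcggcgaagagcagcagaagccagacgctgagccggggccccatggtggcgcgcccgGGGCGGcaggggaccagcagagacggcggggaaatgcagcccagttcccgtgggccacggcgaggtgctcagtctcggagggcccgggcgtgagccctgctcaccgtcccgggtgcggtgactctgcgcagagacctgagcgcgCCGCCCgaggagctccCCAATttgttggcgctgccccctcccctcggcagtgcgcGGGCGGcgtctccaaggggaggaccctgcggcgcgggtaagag
The Col4a1 window held 1 match to CCAAT and 1 to GGGCGG, and the Col4a2 window held 1 and 3. A single GGGCGG match lay in the shared bases. Of all 32851 mouse promoter windows of this length, 37.4% held CCAAT and 35.7% held GGGCGG.

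**Figure D2:**
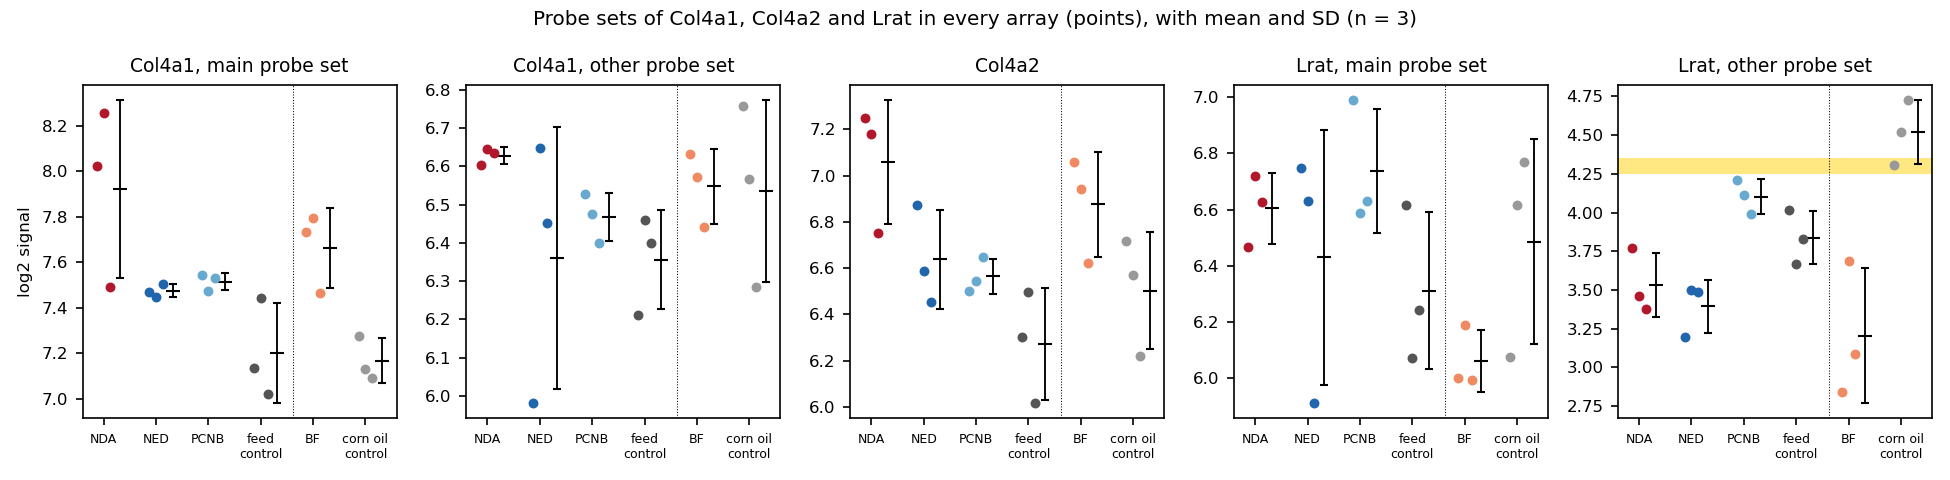
Log2 signal (vertical axes) of single probe sets by group (horizontal axes), with points for arrays and the mean and SD of each group (n = 3); the yellow band is the range of array medians. The NDA points stand above the feed controls for the main Col4a1 probe set and for Col4a2, and for the other Col4a1 probe set by less. The BF points of the other Lrat probe set all lie below the band and the corn oil points at or above it.

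Reln, which encodes a secreted glycoprotein, fell with BF. It lay at 8.36, 8.52 and 8.11 in BF livers, against 8.68, 8.91 and 8.76 in corn oil controls. Every BF array was lower than every control. The change was -0.56 ± 0.12 (n = 3 each; limma adjusted p = 0.00802), or 1.48-fold lower. The call was kept in 18 of 19 alternatives and lost without the 5 arrays of high 18S signal, where a single BF array remained (-0.37, adjusted p = 0.313). In feed animals Reln was 8.85, 8.93 and 8.53 with NDA, 8.91, 8.96 and 8.93 with NED and 8.98, 8.73 and 8.97 with PCNB, against 8.75, 8.58 and 8.63 in feed controls. Relative changes there were -0.06 ± 0.12 with NDA, 0.13 ± 0.12 with NED and 0.09 ± 0.12 with PCNB, and none passed the test. BF had the lowest and NED the highest group mean. NED, PCNB, corn oil, NDA and feed control means lay within 0.28 of each other, against group SDs of 0.02 to 0.21.

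Lrat, which esterifies retinol for storage, did not pass the test on its main probe set. It was 6.00, 6.19 and 5.99 in BF livers, against 6.08, 6.61 and 6.77 in corn oil controls, and these overlapped. The change was -0.53 ± 0.20 (n = 3 each; limma adjusted p = 0.119), and it was called after centring (adjusted p = 0.0271). A dimmer probe set of the gene lay at 2.84, 3.69 and 3.09 in BF livers, against 4.31, 4.52 and 4.73 in corn oil controls. All BF arrays lay below their array medians there, so the level in BF is given only as at least 1.2-fold lower. This probe set exceeded the array median on the 3 corn oil arrays alone and passed the filter only through them, so no test of it is given. In feed animals the main probe set was 6.47, 6.72 and 6.63 with NDA, 6.75, 6.63 and 5.91 with NED and 6.99, 6.59 and 6.63 with PCNB, against 6.62, 6.07 and 6.24 in feed controls. No feed comparison passed.

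Desmin, the intermediate filament protein of stellate and muscle cells, gave 5.32, 5.20 and 5.35 in BF livers, against 5.57, 5.55 and 5.52 in corn oil controls. The BF arrays were all lower, but the change of -0.36 ± 0.11 (n = 3 each) did not pass on the deposited scale (limma adjusted p = 0.0932) and passed after centring (adjusted p = 0.0123). With the feed chemicals Des was 5.41, 5.70 and 5.52 with NDA, 5.46, 5.65 and 5.75 with NED and 5.27, 5.40 and 5.26 with PCNB, against 5.37, 5.31 and 5.67 in feed controls. These groups overlapped in every case, and no change was called.

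Biglycan, a proteoglycan of collagen fibrils and bone matrix, moved in opposite directions with BF and PCNB. It was 8.37, 8.33 and 8.18 in BF livers, against 8.56, 8.71 and 8.58 in corn oil controls. BF lay lower throughout, with a change of -0.43 ± 0.11 (n = 3 each; limma adjusted p = 0.027) that was lost in 8 of 19 alternatives. These include leaving out BF animal 8 or 10, or corn oil animal 24 or 25. With PCNB it was 8.98, 8.76 and 8.84, against 8.55, 8.33 and 8.31 in feed controls. PCNB lay higher throughout. Genes of a similar signal had a median deposited change of 0.21 with PCNB, and Bgn stood 0.25 above that. The change of Bgn relative to all genes was 0.31 ± 0.11 (n = 3 each; limma adjusted p = 0.0104). That call was lost after quantile normalization (adjusted p = 0.123), after centring (adjusted p = 0.0766) and without PCNB animal 16 (adjusted p = 0.0565). Bgn was 8.42, 8.43 and 8.09 with NDA and 8.47, 8.34 and 8.38 with NED, close to those controls. The NDA change, -0.26 ± 0.11, was not called on the deposited scale (limma adjusted p = 0.535, n = 3 each) and was called after quantile normalization (adjusted p = 0.0208) and centring (adjusted p = 0.011).

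Bgn has 2 further probe sets, and their changes had the same signs. In the fit of probe sets, one had a deposited change of -0.34 with BF (limma adjusted p = 0.0212) and 0.37 with PCNB (adjusted p = 0.0283). For the other, whose design flags possible cross-hybridisation, the changes were -0.21 with BF (adjusted p = 0.118) and 0.26 with PCNB (adjusted p = 0.0757). Between the controls Bgn was higher in corn oil than in feed animals by a deposited 0.22 without overlap, which did not pass (adjusted p = 0.533, limma, n = 3 each). Of the 9 genes, 2 had arrays without overlap between the controls, beside 11.1% of all tested genes.

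Bgn and Reln, which both fell with BF, have promoter windows on chromosome X at chrX:73483351-73483650 (plus strand) and on chromosome 5 at chr5:22344656-22344955 (minus strand). They are shown because these 2 genes were called between the chemical classes, as given below. Capitals mark GGGCGG on either strand.
Bgn: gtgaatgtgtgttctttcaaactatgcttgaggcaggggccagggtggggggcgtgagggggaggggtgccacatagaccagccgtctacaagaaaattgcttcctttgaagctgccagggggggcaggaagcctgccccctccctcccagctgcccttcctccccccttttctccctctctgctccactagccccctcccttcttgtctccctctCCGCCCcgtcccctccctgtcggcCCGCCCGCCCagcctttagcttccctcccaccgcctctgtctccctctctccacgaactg
Reln: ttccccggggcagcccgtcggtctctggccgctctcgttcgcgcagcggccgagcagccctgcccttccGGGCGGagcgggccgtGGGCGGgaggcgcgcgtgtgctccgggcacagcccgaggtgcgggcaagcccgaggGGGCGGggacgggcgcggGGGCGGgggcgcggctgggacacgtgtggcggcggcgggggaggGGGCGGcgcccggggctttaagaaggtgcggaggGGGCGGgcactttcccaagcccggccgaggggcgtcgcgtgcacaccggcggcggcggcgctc
The Bgn window held 3 matches, some overlapping, and the Reln window held 6. Over the 8 of 10 genes with a window in the promoter table used here, which holds none for Dcn and Col1a1, GGGCGG occurred in 7, CCAAT in 4, TATAAA in 1 (Col3a1) and TGANTCA, the AP-1 letters, in 0. Among all windows TATAAA occurred in 13.6% and TGANTCA in 7.81%.

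Decorin was not called in any comparison. It lay at 11.01, 10.92 and 10.81 with PCNB, against 10.37, 10.83 and 10.30 in feed controls. The overlap rests on feed control animal 28, and without it the change of 0.39 passed (limma adjusted p = 0.0297), against 0.27 ± 0.17 with all arrays (adjusted p = 0.0889, n = 3 each). Dcn was 10.64, 9.98 and 10.46 with NDA, 10.12, 10.30 and 10.35 with NED, and 10.19, 10.35 and 10.02 with BF, against 10.14, 10.71 and 10.23 in corn oil controls. None of these groups stood apart from its controls.

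None of the 3 fibrillar collagen genes was called higher with any chemical. Col3a1 was lower with NED, at 6.80, 7.24 and 6.86, against 7.48, 8.37 and 7.20 in feed controls. The groups overlapped because NED animal 14 lay above the lowest control. The change was -0.87 ± 0.26 (n = 3 each; limma adjusted p = 0.0431), or 1.83-fold lower, and 8 of 19 alternatives lost it, among them leaving out NED animal 12 or 15. Without feed control animal 28 it was -0.56 (adjusted p = 0.215), and with the RNA integrity number, lowest in NED, as a covariate it was -0.55 (limma adjusted p = 0.447). With NDA Col3a1 was 7.19, 7.06 and 7.13, all below those controls. Its change of -0.73 ± 0.26 did not pass (limma adjusted p = 0.0897, n = 3 each), but did after quantile normalization (adjusted p = 0.0251) and centring (adjusted p = 0.0181). PCNB gave 8.30, 7.44 and 7.41 and BF 7.31, 7.69 and 7.14, against 7.78, 7.36 and 7.49 in corn oil controls. Both chemicals overlapped with their controls.

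Col1a2 was 6.35, 6.17 and 6.47 with NDA, 6.35, 6.47 and 6.72 with NED and 6.73, 6.44 and 6.64 with PCNB, against 6.43, 6.87 and 6.59 in feed controls. It was 6.48, 6.52 and 6.27 with BF, against 6.69, 6.51 and 6.51 in corn oil controls. None was called, the lowest adjusted p being 0.0779 for NDA (-0.48 ± 0.13, limma, n = 3 each), which passed after quantile normalization (adjusted p = 0.00987) and centring (adjusted p = 0.00555). Col1a1 was dim, with all values between 3.84 and 4.54. It was 4.37, 3.96 and 3.84 with NED, against 4.38, 4.49 and 4.43 in feed controls, so that NED lay lower throughout (limma adjusted p = 0.0511, n = 3 each). NED's mean of 4.05 is below the array medians, so no fold is given. Timp1, whose message rises in activated stellate cells, lay between 3.21 and 3.87 on all 18 arrays, below every array median, and its level can only be bounded from above.

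**Figure D3:**
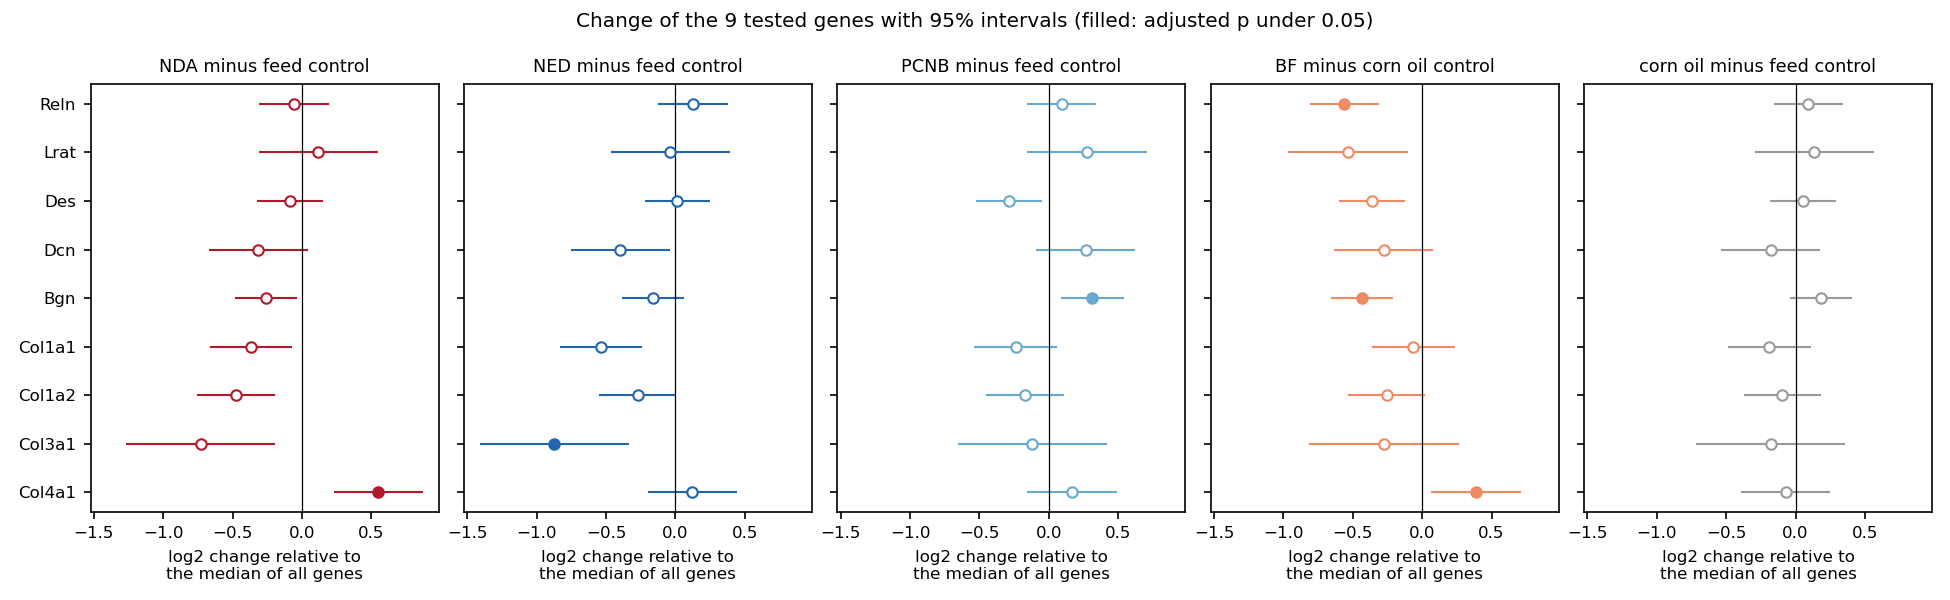
Change of the 9 tested genes relative to the median of all genes (horizontal axis, log2) with 95% intervals, 1 panel per comparison; filled points passed the test on the deposited scale. Col4a1 is filled for NDA and BF, Reln and Bgn for BF on the lower side, Col3a1 for NED and Bgn for PCNB.

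Single animals stood out together in several collagen genes. Feed control animal 28 had the highest Col3a1 of its group, 8.37, as well as 6.87 for Col1a2 and 10.83 for Dcn. PCNB animal 16 had 8.30 for Col3a1. Acta2, the actin of smooth muscle and myofibroblasts, chosen after its values were seen, was 6.31 in feed control animal 28 and 4.99 to 5.75 on all other arrays. Across all 18 arrays the genes most like Col3a1 were Col5a2 (Pearson r = 0.872, Spearman rho = 0.756), Fas (r = 0.864, rho = 0.794) and Ccdc80 (r = 0.861, rho = 0.761). Those most like Reln were Gdf2 (r = 0.875, rho = 0.789), Slc43a1 (r = 0.867, rho = 0.756) and Serpind1 (r = 0.861, rho = 0.711). These are descriptions of 18 arrays that share groups.

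Within groups, with group means removed, 6 pairs of the genes were correlated over the 18 arrays. Col1a2 and Col3a1 gave r = 0.617 (permutation p = 0.0457, adjusted over 6 pairs 0.197) and rho = 0.579 (p = 0.0482, adjusted 0.242). Without the 2 arrays farthest from the median of Col1a2, feed control 28 and NED 15, r was 0.592. Reln and Lrat gave r = 0.352 (permutation p = 0.0655, adjusted 0.197) and rho = 0.399 (p = 0.0807, adjusted 0.242), with r = 0.451 without the 2 farthest arrays. The other 4 pairs had r between -0.13 and 0.23, and no pair passed the adjustment.

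The chemicals classed as positive (NDA and BF) were set against those classed as negative (NED and PCNB), each against its own control. Each class holds only 2 chemicals, and BF alone was given by gavage. Errors and p-values here measure the spread of animals within groups, not that of chemicals within a class. Reln and Bgn were lower with the positive chemicals, 2 of 9 genes beside 7.2% of all genes called (3.39% lower and 3.8% higher). For Bgn the mean deposited effect was -0.20 with the positive chemicals, against 0.23 with the negative ones, a difference of -0.43 ± 0.09 (limma adjusted p = 0.00669, 3 arrays per group). All 3 Bgn probe sets were called, at -0.30 to -0.43 on the deposited scale. Deposited Bgn changes against the own control were -0.32 with BF and 0.46 with PCNB, but -0.09 with NDA and -0.004 with NED. On this scale the class difference of Bgn thus rests mostly on BF and PCNB. After quantile normalization Bgn changed by -0.33 with NDA, -0.52 with BF, -0.21 with NED and 0.25 with PCNB, so NDA had a part as well. For Reln the mean effect was -0.17 with the positive chemicals, against 0.26 with the negative ones, a difference of -0.43 ± 0.10 (adjusted p = 0.0136, limma, 3 arrays per group). NDA alone did not lower Reln on the deposited scale, where it lay 0.12 above the feed controls. On that scale the lower mean of the positive class thus rests on BF. Tested genes of a signal similar to Reln had median deposited changes of 0.27 with NDA, 0.22 with BF, 0.25 with NED and 0.21 with PCNB. After quantile normalization Reln changed by -0.13 with NDA, -0.66 with BF, 0.09 with NED and 0.04 with PCNB. With both control groups pooled, Bgn differed by -0.34 (adjusted p = 0.0127) and Reln by -0.38 (adjusted p = 0.00727, limma). The other 7 genes did not pass, Col4a1 with 0.61 for the positive and 0.30 for the negative chemicals (adjusted p = 0.175), and Col3a1 with -0.36 and -0.34 (adjusted p = 0.981).

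The calls of Bgn and Reln between the classes were lost when the RNA integrity number was a covariate (adjusted p = 0.14 and 0.156) and without the 5 arrays of high 18S signal (0.107 and 0.172). Markers of macrophages moved with them. Of 14 Kupffer and macrophage markers, all tested, 6 were lower with the positive chemicals and none was higher, beside 3.39% and 3.8% of all genes. Among the 6 was Mpeg1, at -0.97 ± 0.12 (limma adjusted p = 3.01e-05). The mean signal of the 14 markers per array ranged from 7.03 to 7.61 in NDA, 7.52 to 7.82 in NED and 7.57 to 8.08 in PCNB livers. Feed controls, at 7.24 to 7.82, overlapped with all of these. In BF livers it was 7.19 to 7.58, against 7.65 to 7.99 in corn oil controls. The part of these markers in the result was not tested. Nor were they examined with RNA integrity as a covariate or without the high 18S arrays.

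**Figure D4:**
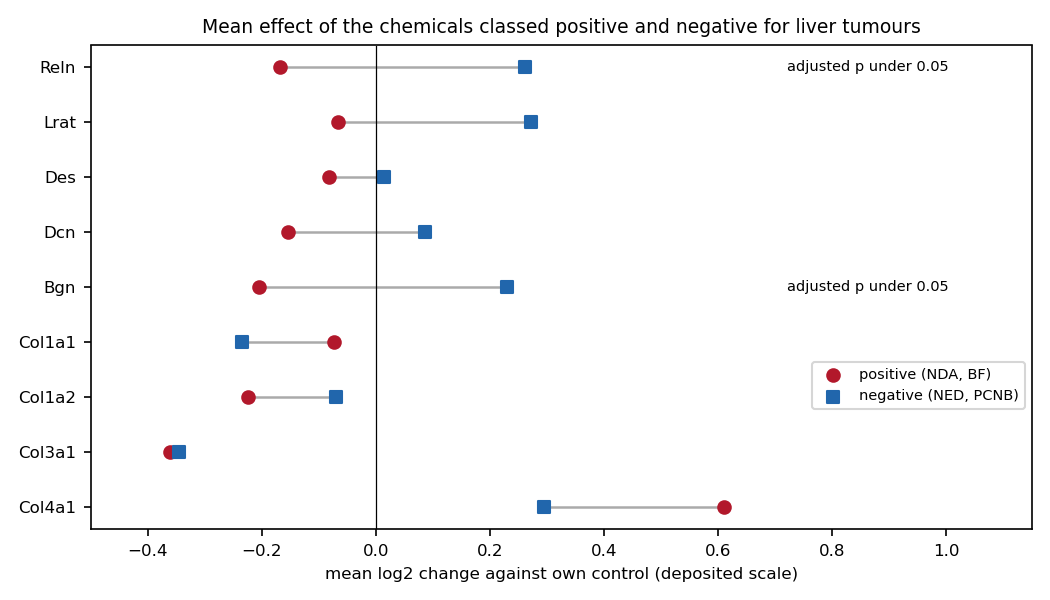
Mean log2 change against the own control, on the deposited scale (horizontal axis), of the positive (circles) and the negative chemicals (squares) for each of the 9 tested genes; the grey line joins the 2 means. Reln and Bgn, which are marked, lie at -0.17 and -0.20 for the positive chemicals and at 0.26 and 0.23 for the negative ones.

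NDA and NED are related compounds given at the same concentration in feed for the same time, and this was the only pair of compounds compared. NDA carries both amino groups directly on its naphthalene ring, whereas in NED the ring nitrogen continues into an aminoethyl chain. None of the 9 genes was called between them, beside 5.47% of all tested genes, and 1, Col4a1, had an unadjusted p under 0.05. Col4a1 was higher with NDA than with NED by 0.45 (95% interval 0.13 to 0.77, limma adjusted p = 0.0964, n = 3 each), with overlap, and it passed without NDA animal 5 (0.66, adjusted p = 0.0117). For Reln the interval was -0.41 to 0.09, for Bgn -0.30 to 0.15, and for Col3a1 -0.37 to 0.70. Those of Lrat (-0.25 to 0.61), Des (-0.31 to 0.16), Dcn (-0.25 to 0.46) and Col1a2 (-0.46 to 0.10) also held 0. For Col1a1 both means were below the array medians and no interval is given. Intervals of this width do not show that the compounds act alike. Among other listed genes, Col5a3, a minor fibrillar collagen chain, was higher with NDA by 0.87 ± 0.17 (limma adjusted p = 0.00658). Fn1, fibronectin, was lower, at -0.53 ± 0.08 (adjusted p = 0.000567), as was Col18a1, a basement membrane collagen, at -0.50 ± 0.08 (adjusted p = 0.000712, limma, n = 3 each).

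A wider list of stellate cell markers, which holds Reln, Lrat, Des and Dcn, had 22 of 24 genes tested. Between the classes, 6 of the 22 were lower with the positive chemicals and none higher, beside 7.2% of all genes (3.39% lower and 3.8% higher). These counts for the list were the same after quantile normalization and centring. Between NDA and NED alone, 1 of the 22 was lower with NDA and none higher, beside 1.96% and 3.51% of all genes. Besides Reln, the 6 genes lower between the classes included Ecm1, an extracellular matrix glycoprotein (-0.43 ± 0.09, limma adjusted p = 0.00727), and Vipr1, a neuropeptide receptor (-0.41 ± 0.09, adjusted p = 0.00959). Mean Ecm1 was 9.30 with NDA, 9.32 with NED and 9.70 with PCNB, against 9.27 in feed controls. It was 8.90 with BF, against 9.30 in corn oil controls, so on the deposited scale its class difference does not come from NDA. Over all genes, the shares called higher and lower were 31.5% and 8.41% with NDA, 24.8% and 7.58% with BF, 24.7% and 4.37% with NED and 14.6% and 3.87% with PCNB. With BF 6 fell and 1 rose (Angptl6, 0.51 ± 0.12, limma adjusted p = 0.000832), with a median of -0.29. With PCNB 7 rose and none fell, with a median of 0.21, but none passed in either direction after quantile normalization and 1 rose and 2 fell after centring. NDA raised 3, with a median of -0.17, but 1 rose and 5 fell after quantile normalization. NED raised 3 and lowered 1, and after quantile normalization it lowered 1 and raised none. The mean signal of the list per array was 6.58 to 6.67 in BF livers, against 6.75 to 6.92 in corn oil controls, and 6.95 to 7.07 in PCNB livers, against 6.67 to 6.82 in feed controls. With BF 4 of 14 Kupffer and macrophage and 3 of 14 sinusoidal endothelial markers also fell. Their part in the stellate result was not tested.

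Several genes that process collagen rose on the deposited scale. Of 10 tested, 5 rose with NDA, 5 with BF, 6 with NED and 3 with PCNB, and none fell, where 31.5%, 24.8%, 24.7% and 14.6% of all genes were called higher. P4ha2, a subunit of the prolyl hydroxylase that stabilises the collagen helix, was 7.04, 6.84 and 6.72 in BF livers, against 5.14, 4.69 and 4.64 in corn oil controls. It rose by 1.93 ± 0.14 (n = 3 each; limma adjusted p = 1.71e-08). P4hb, the other subunit, which is also a general protein disulphide isomerase, rose by 0.44 ± 0.07 and Plod1, a lysyl hydroxylase, by 0.54 ± 0.10 with BF. After quantile normalization 2 of the 10 rose and 1 fell with NDA, 4 rose with BF, 1 rose with NED and none was called with PCNB.

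The counts of the matrix lists are read against 31.5% of all genes called higher and 8.41% lower with NDA, 24.8% and 7.58% with BF, 24.7% and 4.37% with NED and 14.6% and 3.87% with PCNB. Among 12 fibrillar and interstitial collagens, 2 rose and 3 fell with NDA, 1 rose and 1 fell with BF, 1 fell with NED and 1 rose with PCNB, and with NDA quantile normalization gave 1 higher and 5 lower. Col5a3 rose with both positive chemicals, by 0.60 ± 0.17 with NDA (limma adjusted p = 0.00266) and 0.57 ± 0.17 with BF (adjusted p = 0.00738). Of 14 basement membrane genes, Lamb2, a laminin chain, exceeded the array median only in 4 control arrays and passed the filter only through them, so it is left out of the counts. It lay at 3.74 to 4.12 in NDA, 3.80 to 4.15 in BF, 3.80 to 4.07 in NED and 3.77 to 4.06 in PCNB livers, against 4.28 to 5.03 in feed and 4.27 to 5.02 in corn oil controls. Of the other 13, 3 rose and 1 fell with NDA, 1 rose and 1 fell with BF, 1 rose and 1 fell with NED and 1 rose with PCNB, but after quantile normalization none rose with BF, NED or PCNB. Among 13 proteoglycans and glycoproteins, 3 fell with NDA, 3 with BF and 1 with NED, and none rose with these, while PCNB raised 3 and lowered 1. Quantile normalization gave 5 lower with NDA, 6 with BF, 3 with NED and 1 with PCNB, and none higher. The list median was -0.36 with NDA, -0.36 with BF, -0.40 with NED and -0.04 with PCNB. Fn1 was among the genes that fell with NDA and with BF, at -0.53 ± 0.08 with NDA (limma adjusted p = 0.00248) and -0.48 ± 0.08 with BF (adjusted p = 0.00221).

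Of 9 tested activated myofibroblast genes, 1 rose with NDA, 1 rose and 1 fell with BF, 1 fell with NED and none was called with PCNB. Over all genes, 31.5% were called higher and 8.41% lower with NDA, and 24.8% and 7.58% with BF. With NED these shares were 24.7% and 4.37%, and with PCNB 14.6% and 3.87%. After quantile normalization none rose and 2 fell with NDA, 1 rose and 2 fell with BF, 2 fell with NED and 1 fell with PCNB. After centring 5 fell with NDA, 4 with BF, 6 with NED and 4 with PCNB, and 1 rose with BF. In that order, 24.8%, 21.5%, 15% and 13.4% of all genes were then lower. On the deposited scale, the gene that rose with NDA and with BF was Tpm1, a tropomyosin that many cells express (0.76 ± 0.16 with BF, limma adjusted p = 0.00058). Of 16 genes of TGF-beta signalling, beside 31.5%, 24.8%, 24.7% and 14.6% of all genes called higher with NDA, BF, NED and PCNB, 6 rose with NDA, 3 rose and 1 fell with BF, 8 rose with NED and 4 with PCNB, but after quantile normalization 4 rose and 1 fell with NDA, 2 rose and 2 fell with BF, 2 rose with NED and none was called with PCNB. Tgfbr2, a receptor for TGF-beta, rose with all 4 chemicals, by 0.59 ± 0.17 with NDA, 0.54 ± 0.17 with BF, 0.64 ± 0.17 with NED and 0.47 ± 0.17 with PCNB, the last not called after quantile normalization (limma adjusted p = 0.102) or centring (adjusted p = 0.078). Of 4 PDGF genes, 1 rose with NDA and 1 with BF, but none rose with either after quantile normalization. NED lowered 2 of the 4, beside 4.37% of all genes lower. These were Pdgfc, a ligand (-0.77 ± 0.14, limma adjusted p = 0.00565), and Pdgfrb, a receptor of stellate cells (-0.58 ± 0.15, adjusted p = 0.0361). Without a call, mean Pdgfrb was also lower with NDA (5.50) and PCNB (5.45) than in feed controls (5.81). The same held for BF (5.41) against corn oil controls (5.71). Of 8 genes of retinoid storage, beside the same shares of all genes, 4 rose with NDA (2 higher and 1 lower after quantile normalization) and 2 with each other chemical (with NED 1 higher and 1 lower, and with PCNB none, after quantile normalization), with Aldh1a1, a retinaldehyde dehydrogenase that hepatocytes express as well, at 0.73 ± 0.08 with BF (limma adjusted p = 2.35e-06). Among 6 proteases and inhibitors, NED raised Mmp14 and lowered Mmp19, beside 24.7% and 4.37% of all genes, and none was called with the other chemicals. After quantile normalization and after centring, 1 was lower and none higher with NED. With NDA 1 fell after quantile normalization and 2 after centring, and with PCNB 1 fell after centring. Of 8 portal fibroblast markers, 3 fell with NDA, 1 with NED and 1 with PCNB, beside 8.41%, 4.37% and 3.87% of all genes lower. None was called with BF, beside 7.58% lower. After quantile normalization 2 fell with NDA, 1 with BF and none with NED or PCNB. After centring 5 fell with NDA, 3 with BF, 3 with NED and 3 with PCNB, beside 24.8%, 21.5%, 15% and 13.4% of all genes.

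**Figure D5:**
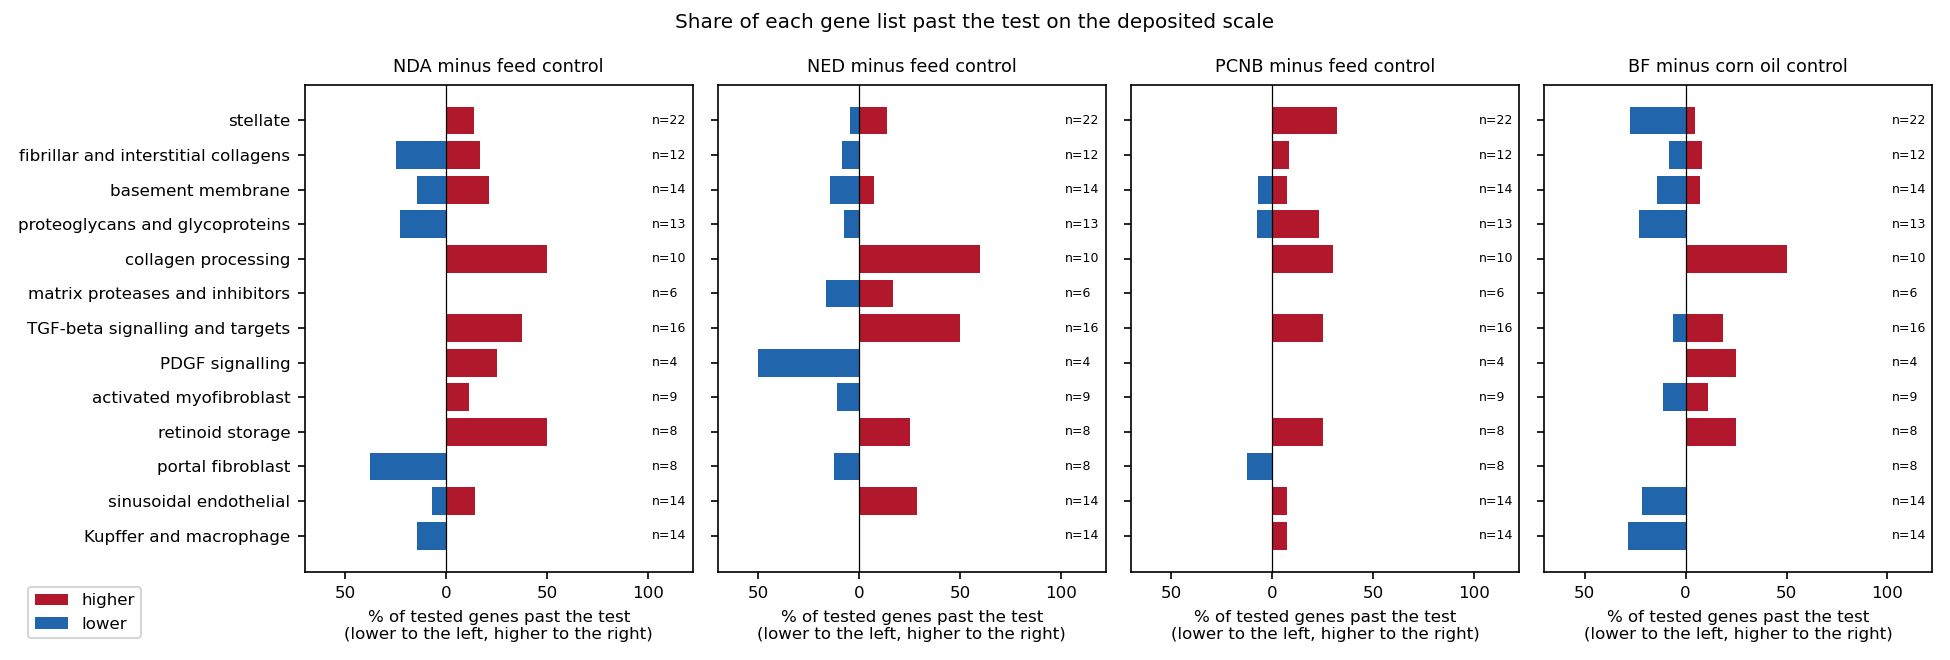
Share of the tested genes of each list (rows, with n) that passed the test on the deposited scale, higher to the right and lower to the left (horizontal axis, percent), with 1 panel per chemical. In the collagen processing row 5 of 10 genes are higher for NDA, 6 for NED, 3 for PCNB and 5 for BF, and in the stellate row BF has 6 of 22 lower while PCNB has 7 of 22 higher, none of which passed after quantile normalization. The basement membrane row includes Lamb2, which counts as lower in all 4 panels.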

How the data were processed

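Liver RNA of 18 mice was measured on 1 array each. The authors deposited log2 signals for 45101 probe sets, and how they corrected background, normalized arrays and summarised probes is not given in the sources used here. RNA was extracted with Trizol and RNeasy and 10 ug was sent for biotin labelling, per the labels. Of the probe sets, 34958 name 1 gene in the platform annotation, 932 several and 9211 none. Probe sets that exceeded their array median on 3 or more of the 18 arrays were kept, and each gene was represented by its brightest one, giving 12170 genes.

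Group means of the 6 groups were estimated jointly in limma 3.58.1 (R 4.3.3; mean-variance trend, 12 residual degrees of freedom), with 7 contrasts. Changes are given relative to the median of all tested genes, and errors are standard errors. Bounds for dim probe sets use the array median as floor. Correlations used 100000 permutations within groups. Groups come from the labels, which pair no animals. Alternatives are listed in the closing section. The procedure was tested on simulated data. Promoters come from RefSeq's GRCm38.p6 table. The 10 genes, the lists and the rule for named genes (all 10 genes, and up to 3 called genes of each list by moderated t) were chosen with earlier results of these data known. Acta2 and Alb are named outside this rule. Plots used Python 3.11.15 and matplotlib 3.10.9. The number of arrays limits the precision.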

Additional observations from a re-analysis of the deposited data

How the results depend on the processing

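The count of called genes among the 9 was recomputed under other normalizations, filters, probe set rules, variance models, covariates, controls and thresholds and without each array. With NDA it was 1, but 4 after quantile normalization (Bgn, Col1a2 and Col3a1 lower) and 5 after centring (Col1a1 lower as well). With BF it was 3, but 5 with array weights, 2 after quantile normalization (Col4a1 lost), 4 after centring (Col4a1 lost, Des and Lrat lower), 2 with pooled controls (Bgn lost), 1 with RNA integrity as a covariate, 0 without the 5 arrays of high 18S signal and 1 at adjusted p under 0.01. With NED it was 1, but 2 after centring and 0 with averaged probe sets, with only the arrays compared, with RNA integrity and at 0.01. Without the high 18S arrays NED also had 1, which was Col1a1 and not Col3a1. With PCNB it was 1, but 2 with pooled controls and 0 after quantile normalization, after centring, with only the arrays compared and at 0.01. Between the classes it was 2, but 0 with RNA integrity, 0 without the high 18S arrays, 1 at 0.01 and 3 with averaged probe sets. Averaging also left BF at 3, with Lrat in place of Col4a1, and both Lrat calls take in its dim probe set that passed the filter only through corn oil arrays. The causes were not tested. Leaving out 1 array gave 1 to 2 genes for NDA, 1 to 4 for BF, 0 to 1 for NED, 0 to 2 for PCNB, 0 to 0 between controls, 0 to 1 for NDA against NED and 2 to 3 between the classes. The high 18S setting leaves 1 array in BF and 1 in NED, assumed to vary like the other groups.

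Over all genes, 12.2% were called higher and 12.1% lower with NDA once quantile normalized, and 9.22% and 24.8% once centred, against 31.5% and 8.41% on the deposited scale. In the same order, BF gave 12.6% and 10.7%, 11.2% and 21.5%, against 24.8% and 7.58%. NED gave 7.94% and 6.49%, 5.49% and 15%, against 24.7% and 4.37%. PCNB gave 3.02% and 4.32%, 2.56% and 13.4%, against 14.6% and 3.87%. No called change of the 9 genes reversed its sign. After quantile normalization the within-group correlation of Bgn and Dcn was -0.14 and that of Reln and Des was 0.24, which reversed their signs, and neither passed. No paired analysis was possible because the groups share no animal number. Signal over background limits Col1a1, Timp1, Lamb2 and the dim Lrat probe set.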
